A study of Mus musculus with 48 samples.

Results

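The comparison was made between livers of adipocyte Bmal1 knockout (KO) mice collected at 2 opposite times of day, 4 libraries at ZT0 and 4 at ZT12. These 8 of the 48 libraries of the series were chosen by the names of their count columns. All 48 came from female C57BL/6J mice, and the labels give an age and a weight for each library, and a library is read here as 1 mouse. The KO label stands for a deletion of Bmal1, listed in the table as Arntl, in adipocytes; the labels name no Cre driver. Housing was in groups on a cycle of 12 h light and 12 h dark with free access to food. All mice of both times, KO and wild type (WT) alike, were then held in darkness for 1 day and went without food for the last 24 h. KO mice at ZT0 were 58.5 to 69.75 weeks old and those at ZT12 46 to 79.25 weeks, and at both times each KO library carries the same age as the WT library of its number. The 4 WT libraries at ZT0 and the 4 at ZT12 serve as the genotype beside which the KO values are set.

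The circadian clock is a feedback loop of transcription. BMAL1, with CLOCK or NPAS2, binds E-boxes and activates the Per and Cry genes, the REV-ERB genes Nr1d1 and Nr1d2, and the PAR bZIP factors Dbp, Tef and Hlf. PER and CRY proteins then repress BMAL1, REV-ERB and ROR receptors set the timing of Arntl itself, and the PAR bZIP factors compete with NFIL3 at D-boxes. In liver this loop times genes of lipid, glucose and drug metabolism. In these mice the deletion is labelled for fat cells, so the liver clock genes were not its target and their levels do not check the genotype.

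Totals in the deposited table were nearly equal: the 8 KO libraries held 12870728 to 12977969 counts without Alb, and the 48 libraries 12841969 to 13009797. The sources used here do not state what made them so close, so they do not give the depth of sequencing. Between libraries of the same time, r was 0.972 to 0.986 at ZT0 and 0.976 to 0.985 at ZT12 (log2 of CPM, the counts scaled to a common library size, across genes, which are not independent). The 10 hepatocyte markers summed to 36945 to 45026 CPM at ZT0 and 40415 to 58427 CPM at ZT12, and none of them passed the test. One library stood apart: replicate 2 at ZT0 held 475 CPM of exocrine pancreas genes against 6.89 to 11.8 CPM in the other 7 KO libraries. Body weight was 26.4 ± 1.96 g at ZT0 and 22.1 ± 2.31 g at ZT12 (SD, n = 4 each; exact permutation test, two-sided p = 0.0857, adjusted 0.171 over weight and age), where 4 against 4 cannot give a p below 0.0286. The slope of log2 CPM on gene GC content, per 10 percentage points, ran from -0.113 to 0.361 at ZT0 and from -0.462 to -0.096 at ZT12, and the groups overlap only through replicate 2 at ZT0. Some calls were lost or gained with one of these covariates, and those values stand beside the genes they concern.

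Between ZT0 and ZT12 in KO liver, clock genes were among the largest changes in both directions. Per3 was 29.7-fold higher at ZT12, Gm129 27.7-fold, Dbp 11.4-fold and Per2 8.68-fold. In the other direction Npas2 was 15.2-fold higher at ZT0. Arntl was 5.12-fold and Nfil3 3.75-fold higher there, but by the rule used below neither was among the 10 largest falls. Of 13646 genes tested, 550 changed (edgeR quasi-likelihood test, Benjamini-Hochberg adjusted p under 0.05), which is 4.03% of all genes. An unadjusted p under 0.05 was found for 2809 genes (20.6%). Of the 550, 259 were higher at ZT12 (1.898% of genes) and 291 were lower (2.132%). The change exceeded 2-fold in 129 of the higher and 157 of the lower genes, and the median size among the called genes was 1.03 on the log2 scale. In 526 of the 550 the 4 libraries of one time did not overlap the 4 of the other; over all genes tested, 22.7% did not overlap. The median log2 change over all genes was -0.01. In whole liver, fewer cells of a type and less RNA per cell cannot be told apart. Leaving out 1 library gave 246 to 409 calls, and the count fell by over 1.5 times without ZT0 replicate 1 (300), 3 (363) or 4 (295) and without ZT12 replicate 1 (246) or 4 (312). With body weight as a covariate 309 genes were called, of which 270 were among the 550.

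Start-site sequences of 4 clock genes are shown because they hold repeated E-boxes or D-boxes, or a ROR core, motifs through which this loop is known to act. Of 19 clock genes, 16 had an entry in the RefSeq promoter table (build GRCm38.p6, 250 bases before to 50 after the start), with 21 windows. On either strand, the E-box CACGTG was found in windows of 5 genes (Per1, Cry1, Bhlhe41, Gm129 and Tef), against 7.15% of all 32851 windows in the table. The D-box, searched as TTATGTAA or its reverse complement TTACATAA, was found in 1 gene, Per3, against 0.938% of windows. The core of the ROR element, searched as TAGGTCA or TGGGTCA on either strand, was found in 2 genes, Arntl and Nfil3, against 6.45% of windows. These searches do not overlap in letters, a match is a description of sequence, and no match says only that the letters are not in the window. The windows below run 5′ to 3′ on the gene's strand, with the matches in capitals. The first is the 250 bases before the start of Gm129 (RefSeq symbol Ciart, a repressor of CLOCK and BMAL1; chr3:95882229-95882478, minus strand), with 3 E-boxes. The second is the 250 bases before the start of Per3 (chr4:151044666-151044915, minus strand), with 2 D-boxes. The other two are the 30 bases around the ROR core of Nfil3 (chr13:52981034-52981063, minus strand) and of Arntl (chr7:113207529-113207558, plus strand).
Gm129: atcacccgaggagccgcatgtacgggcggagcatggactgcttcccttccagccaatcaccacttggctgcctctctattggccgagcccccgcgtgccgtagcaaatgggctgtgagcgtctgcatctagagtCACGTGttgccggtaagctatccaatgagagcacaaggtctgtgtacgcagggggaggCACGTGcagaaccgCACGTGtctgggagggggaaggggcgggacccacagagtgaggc
Per3: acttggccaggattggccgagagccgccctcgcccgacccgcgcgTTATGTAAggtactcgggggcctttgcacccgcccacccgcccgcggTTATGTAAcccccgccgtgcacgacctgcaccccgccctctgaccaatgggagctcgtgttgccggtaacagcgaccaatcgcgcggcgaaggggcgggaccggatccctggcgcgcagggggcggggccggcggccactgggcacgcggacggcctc
Nfil3: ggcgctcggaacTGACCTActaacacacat
Arntl: gaaggcagaaagTAGGTCAgggacggaggt
Windows with 3 or more E-boxes made up 0.0883% of the table and windows with 2 or more D-boxes 0.0213%. The 3 E-boxes of Gm129 begin 116, 58 and 44 bases before the start site, and the 2 D-boxes of Per3 begin 205 and 158 bases before it. A match did not go with a call in every case: of the 5 genes with an E-box, Gm129 and Tef rose, while Per1, Cry1 and Bhlhe41 did not pass.

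Among the activators, Arntl and its partner Npas2 fell from ZT0 to ZT12. Arntl (mm9 chr7:120350979-120457636), which encodes BMAL1, was at 36.4, 33.2, 33.1 and 26.8 CPM in ZT0 replicates 1 to 4 and at 1.58, 9.99, 11.5 and 2.25 CPM in ZT12 replicates 1 to 4. The groups did not overlap, but the ZT12 libraries fell into a low pair (replicates 1 and 4) and a higher pair (2 and 3). The log2 change was -2.36 (SE 0.40, adjusted p = 0.000252). Npas2 (chr1:39250576-39420079), the alternative partner of BMAL1, was at 18.3, 11.6, 22.1 and 17 CPM at ZT0 and at 0.904, 1.25, 1.69 and 0.675 CPM at ZT12. Every ZT12 library was below every ZT0 library, with a log2 change of -3.93 (SE 0.56, adjusted p = 1.49e-05). Clock (49.4 ± 5.94 CPM at ZT0 and 41 ± 9.74 at ZT12; SD, n = 4) and Rora (72.8 ± 12.9 and 94.5 ± 13.9 CPM) did not pass the test, with groups that overlapped. With GC slope as a covariate Clock passed, with a log2 change of -0.70 against -0.27 without it (adjusted p = 0.0112), and the estimate of Rora, 0.38, became -0.0597.

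**Figure D1:**
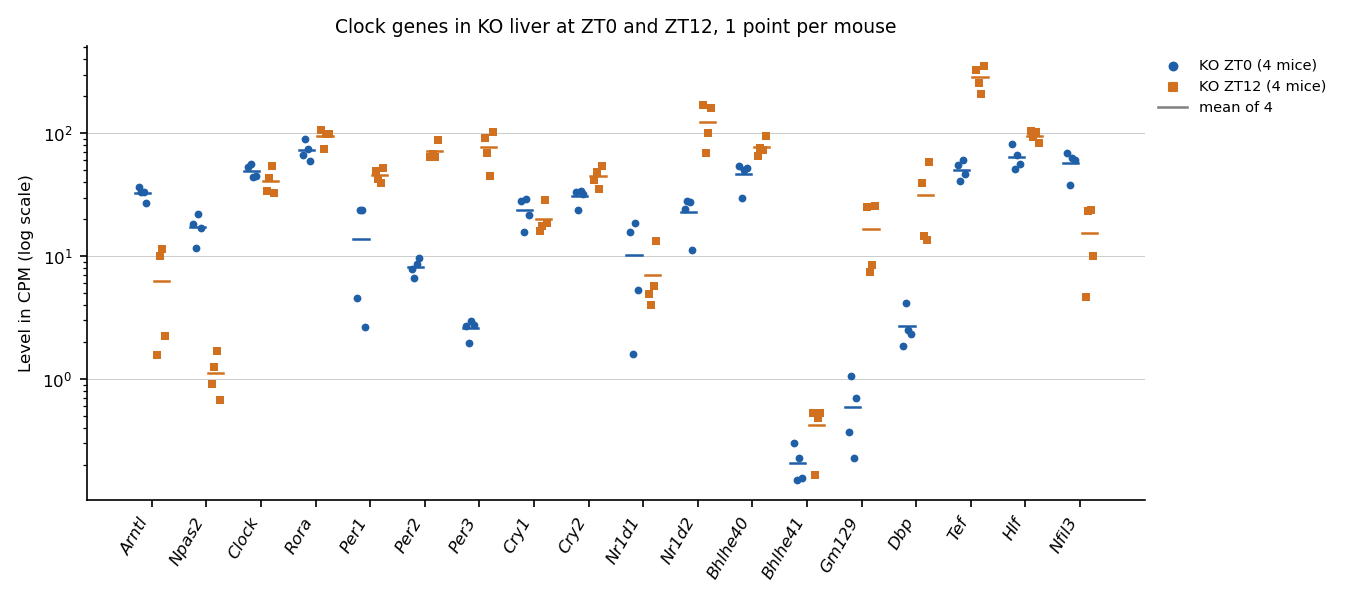
Level of 18 clock genes in KO liver in CPM (log scale), 1 point per mouse, at ZT0 (circles) and ZT12 (squares), with a line at the mean of 4. Arntl, Npas2 and Nfil3 sit lower at ZT12 and Per2, Per3, Nr1d2, Gm129, Dbp and Tef higher, without overlap, while Clock, Cry1 and Nr1d1 overlap.

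Of the 10 repressors, 4 rose, none fell and 6 did not pass, a share called of 40% against 4.03% of all genes tested. Their median log2 change was 1.37. Per2 (chr1:93312561-93355907) was at 7.79, 6.62, 8.61 and 9.67 CPM at ZT0 and at 63.6, 67.4, 64.4 and 88.7 CPM at ZT12. Even the lowest ZT12 library was far above the highest at ZT0 (log2 change 3.12, SE 0.32, adjusted p = 1.03e-08). Per3 (chr4:150377761-150418774) was at 2.70, 1.98, 2.97 and 2.73 CPM at ZT0 and at 92.1, 69.7, 44.6 and 103 CPM at ZT12. Its adjusted p of 4.91e-11 was the smallest of all genes (log2 change 4.89, SE 0.40). Nr1d2, which encodes REV-ERBβ, was at 24.1, 27.9, 27.8 and 11.2 CPM at ZT0 and at 168, 68.9, 101 and 160 CPM at ZT12 (log2 change 2.45, SE 0.38, adjusted p = 6.40e-05). Gm129 was at 0.375, 1.06, 0.229 and 0.702 CPM at ZT0 and at 25.1, 7.41, 8.46 and 25.7 CPM at ZT12 (log2 change 4.79, SE 0.81, adjusted p = 0.000204). For Nr1d2 and Gm129 the ZT12 libraries split again into replicates 1 and 4, here the higher pair, and replicates 2 and 3.

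Per1 was at 4.57, 23.8, 23.8 and 2.65 CPM at ZT0 and at 49.0, 42.4, 39.3 and 52.2 CPM at ZT12. The groups did not overlap, but the ZT0 libraries spread from 2.65 to 23.8 CPM, and the log2 change of 1.74 (SE 0.62) did not pass (adjusted p = 0.101). It passed with DESeq2 (adjusted p = 0.0457), with GC slope as a covariate (0.000789) and in a fit of the 8 libraries alone (0.0454). Nr1d1, which encodes REV-ERBα, was at 15.6, 1.60, 18.8 and 5.30 CPM at ZT0 and at 4.90, 4.00, 5.72 and 13.3 CPM at ZT12. Its groups overlapped fully (log2 change -0.56, SE 0.82, adjusted p = 0.70), and with GC slope as a covariate the estimate changed sign to 0.77. Cry1 was at 23.7 ± 6.34 CPM at ZT0 and 20.2 ± 5.59 CPM at ZT12 (SD, n = 4), with overlapping groups. Cry2 and Bhlhe40 had higher ZT12 libraries without overlap, at 1.46-fold and 1.66-fold, but did not pass (adjusted p = 0.342 and 0.273). With GC slope as a covariate both passed, at 1.02 against 0.54 for Cry2 and 1.25 against 0.73 for Bhlhe40 on the log2 scale (adjusted p = 1.30e-05 and 0.000903). They also passed in the fit of the 8 libraries alone (0.0423 and 0.0245), and Bhlhe40 with the replicate block (0.0492). Bhlhe41 was under 0.6 CPM in all 8 libraries.

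All 4 members of the PAR bZIP and Nfil3 group changed, against 4.03% of all genes tested. Dbp (chr7:52960458-52965525) was at 1.87, 4.18, 2.52 and 2.34 CPM at ZT0 and at 39.2, 14.5, 13.5 and 57.9 CPM at ZT12 (log2 change 3.51, SE 0.58, adjusted p = 0.000149). Tef was at 55.4, 40.6, 60.3 and 46.2 CPM at ZT0 and at 326, 254, 208 and 351 CPM at ZT12 (log2 change 2.49, SE 0.21, adjusted p = 6.37e-11). Nfil3, the repressor at the same D-boxes, was at 68.6, 38.0, 63.4 and 60.9 CPM at ZT0 and at 4.67, 23.2, 23.7 and 10.1 CPM at ZT12 (log2 change -1.91, SE 0.44, adjusted p = 0.00643). None of these 3 genes had overlapping groups, as for 526 of the 550 called genes and 22.7% of all genes tested. Hlf rose 1.48-fold with an adjusted p of 0.0452, and lost the call in 7 of the 8 fits that left out 1 library. With body weight as a covariate the calls of Nfil3 (adjusted p = 0.0613) and Hlf (0.142) were lost.

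Several of these genes divided the 4 ZT12 libraries in the same way. Replicates 2 and 3 were above replicates 1 and 4 for Arntl, Npas2 and Nfil3, and below them for Per1, Nr1d2, Gm129, Dbp and Tef. Per2, Cry1, Cry2, Bhlhe40, Nr1d1 and Hlf did not divide them so. The genes were picked after this was seen, and no test was made of the pairs. Over the 6 collection times of the KO mice, mean Arntl was 32.4, 9.53, 3.67, 6.34, 26.3 and 32.1 CPM in order from ZT0 to ZT20. The ZT12 mean therefore lay just after the lowest of the 6 means. Dbp means were 2.73, 60.3, 106, 31.3, 8.78 and 5.11 CPM in the same order, with the highest at ZT8. Per2 was highest at ZT12 itself (8.17, 14.8, 51.4, 71.0, 49.4 and 26.0 CPM). Nr1d1 means were 10.3, 37.4, 34.3, 6.97, 3.12 and 3.11 CPM, but the ZT4 mean rested on 1 library: its replicates were at 116, 11.7, 5.17 and 16.9 CPM. Cry1 means were 23.7, 9.22, 9.33, 20.2, 55.6 and 47.8 CPM, and here the low values at ZT4 and ZT8 lay between the 2 times compared.

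**Figure D2:**
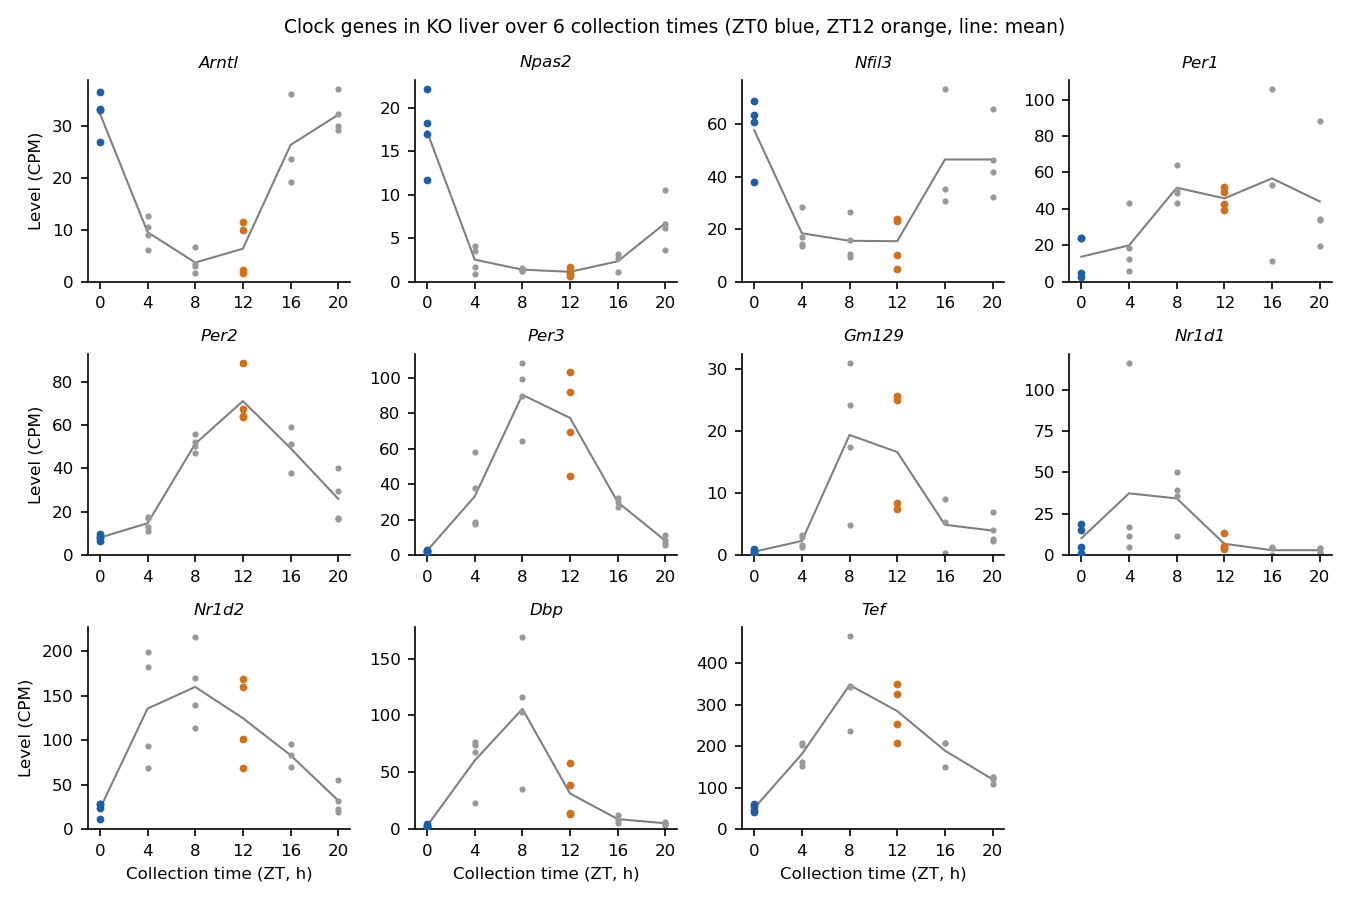
Level in CPM of 11 clock genes in KO liver against collection time in hours, 1 point per mouse (4 per time, 3 at ZT16), with ZT0 in blue, ZT12 in orange, the other times in grey and a line through the means. Mean Arntl, Npas2 and Nfil3 are lowest at ZT8 and ZT12, where mean Per2, Per3 and Tef are highest, and mean Dbp is highest at ZT8. At ZT16 mean Per2 is still at 49.4 CPM, while mean Arntl is back at 26.3 CPM and mean Nfil3 at 46.5 CPM.

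Of 13 tested clock kinases, ligases and direct targets, 4 rose and none fell, with a median log2 change of 0.46. The share called was 30.8%, against 4.03% of all genes tested. Usp2, a deubiquitinase with rhythmic expression, went from 4.04, 3.35, 7.01 and 3.51 CPM at ZT0 to 55.8, 34.1, 30.1 and 70.6 CPM at ZT12 (10.6-fold, adjusted p = 4.12e-05). Wee1, a kinase that delays mitosis, went from 0.798 ± 0.295 to 6.90 ± 1.39 CPM (SD, n = 4; 8.54-fold, adjusted p = 0.000308). Nampt, the rate-limiting enzyme of NAD salvage, went from 61.4, 69.3, 56.5 and 56.4 CPM to 283, 180, 193 and 252 CPM (3.73-fold, adjusted p = 0.000635). Tsc22d3, which encodes the glucocorticoid-induced protein GILZ, rose 2.66-fold (adjusted p = 0.00353). Each of these 4 genes was called in every alternative fit run. None had overlapping groups, which also held for 526 of the 550 called genes and for 22.7% of all genes tested.

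The largest rises were ranked among called genes with a mean of at least 2 CPM over the 8 KO libraries and groups that did not overlap. The first 10 were Per3, Gm129, Thrsp, Upp2, A930033H14Rik, Dbp, Pde6c, Usp2, Per2 and Wee1. Thrsp, a regulator of fatty acid synthesis, was at 28.8, 23.6, 39.6 and 19.4 CPM at ZT0 and at 517, 407, 298 and 466 CPM at ZT12 (15.2-fold, adjusted p = 1.06e-05). Upp2, a uridine phosphorylase of liver, was at 30.4, 31.6, 54.8 and 26.8 CPM at ZT0 and at 928, 424, 306 and 378 CPM at ZT12 (14.2-fold, adjusted p = 4.67e-06). A930033H14Rik rose 14-fold, and Pde6c, a cone photoreceptor phosphodiesterase subunit by its usual name, rose 10.7-fold from 0.532 ± 0.217 to 5.79 ± 2.02 CPM (SD, n = 4).

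By the same rule, the 10 largest falls included Cela2a, Loxl4, 3930402G23Rik, Slc34a2, Npas2, Npnt, Spon2, Lrfn3 and Tubb2a. Loxl4, a lysyl oxidase of the extracellular matrix, was at 4.42, 9.89, 11.1 and 21.5 CPM at ZT0 and at 0.753, 0.25, 0.161 and 0.675 CPM at ZT12 (log2 change -4.63, SE 0.67, adjusted p = 1.73e-05). Tubb2a, a beta-tubulin, was at 206, 197, 141 and 158 CPM at ZT0 and at 16.3, 32.9, 46.6 and 28.4 CPM at ZT12 (log2 change -2.50, SE 0.28, adjusted p = 1.33e-07). For Tubb2a replicates 2 and 3 were again the highest of the ZT12 libraries. Slc34a2, a sodium phosphate cotransporter, had a log2 change of -4.04, Npnt of -3.85, Spon2 of -2.95 and Lrfn3 of -2.58, and each passed. Cela2a, an elastase of the exocrine pancreas, was at 0.524, 69.0, 0.762 and 0.936 CPM at ZT0 and at 0.377, 0, 0.161 and 0.075 CPM at ZT12. Its log2 change of -6.75 (SE 1.14) rested on the ZT0 library with the pancreas genes: without that library it was -2.18 and did not pass (adjusted p = 0.119).

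Cholesterol synthesis genes leaned to higher levels at ZT12. Of 23 tested, 4 rose, 1 fell and 18 did not pass, a share called of 21.7% against 4.03% of all genes. Estimates were above 0 for 18 of the 23, and the median of the 23 was 0.66 against -0.01 over all genes. Insig1, a sterol-sensing retention protein that SREBP2 induces, went from 94.8, 41.6, 136 and 85.1 CPM at ZT0 to 199, 194, 232 and 250 CPM at ZT12, without overlap (2.44-fold, adjusted p = 0.00935). Acat2, a thiolase of the first step, rose 1.82-fold (adjusted p = 0.0117). Without ZT0 replicate 2 the calls of Insig1 (0.0523) and Acat2 (0.0559) were lost, and that of Acat2 also without ZT12 replicate 2 (0.0623). Insig2, the second such retention protein, had a log2 change of -1.37 (SE 0.35, adjusted p = 0.0173), from 820 ± 228 to 316 ± 129 CPM (SD, n = 4). The number of members called, 5, was 1 without ZT0 replicate 2, 3 without ZT12 replicate 1, 2 or 4, and 4 without any other single library.

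In fatty acid and triglyceride synthesis 3 of 23 rose (Thrsp, Lpin2, Gpam) and 1 fell, a share of 17.4% against 4.03% of all genes. The median was 0.01. Elovl5, which elongates polyunsaturated fatty acids, fell from 1045, 1364, 792 and 1216 CPM at ZT0 to 250, 438, 636 and 475 CPM at ZT12 (log2 change -1.30, adjusted p = 0.0227). Lpin2, a phosphatidate phosphatase, rose 2.01-fold (adjusted p = 0.0453) and lost the call in each of the 8 fits that left out 1 library. Elovl5 lost it in 5 of these 8, and with body weight as a covariate both were lost (0.138 for Elovl5, 0.0844 for Lpin2), Lpin2 also with GC slope (0.0621). Of 28 genes of fatty acid oxidation and ketogenesis, many of them PPARα targets, 1 fell and none rose, with a median of -0.26; this share of 3.57% is near the 4.03% of all genes. The 1 gene was Cpt2, the inner-membrane carnitine acyltransferase, at 390, 425, 426 and 426 CPM at ZT0 and 190, 255, 310 and 247 CPM at ZT12 (adjusted p = 0.0319). Of 16 genes of lipid uptake and droplets, Plin5, a droplet coat protein, fell (255 ± 72.6 to 133 ± 27 CPM; SD, n = 4; adjusted p = 0.0375) and none rose. The share called in the lipid uptake list, 6.25%, is also near the 4.03% of all genes. The calls of Cpt2 and Plin5 were lost in most fits without 1 library, 7 of 8 for Cpt2 and 6 of 8 for Plin5. That of Cpt2 was also lost with body weight as a covariate (0.142).

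Glycogen genes divided. Ppp1r3b, the liver subunit that targets protein phosphatase to glycogen, went from 182, 155, 224 and 170 CPM at ZT0 to 474, 604, 554 and 368 CPM at ZT12 (2.74-fold, adjusted p = 0.00117). Ppp1r3c, another glycogen-targeting subunit, went the other way, from 306, 218, 269 and 252 CPM to 62.9, 102, 94.8 and 45.3 CPM (log2 change -1.77, SE 0.32, adjusted p = 0.000517). Neither gene had overlapping groups, as for 526 of the 550 called genes and 22.7% of all genes tested. Gys2, liver glycogen synthase, rose 1.86-fold (adjusted p = 0.00317) and Slc2a2, the glucose transporter GLUT2, rose from 172 ± 6.42 to 391 ± 108 CPM (SD, n = 4; adjusted p = 0.00661). With Ldha, which fell (adjusted p = 0.0453), 3 of 20 glycolysis and glycogen genes were higher and 2 lower. The share called, 25%, stood against 4.03% of all genes. None of 21 gluconeogenesis and amino acid catabolism genes passed edgeR's test, and DESeq2 called 2. An unadjusted p under 0.05 was found for 4 of the 21, against 20.6% of all genes tested. The smallest p belonged to Foxo1, with 39.2 ± 4.32 CPM at ZT0 and 66.1 ± 6.40 CPM at ZT12 (SD, n = 4; adjusted p = 0.0558). Foxo1 passed with DESeq2 (0.0277), with GC slope as a covariate (0.0054), in the 8 libraries alone (0.00523) and with the replicate block (0.0273). Among 19 genes of insulin, IGF and growth hormone signalling 1 was called, a share of 5.26% that is near the 4.03% of all genes. DESeq2 called 2, and edgeR's unadjusted p was under 0.05 for 11 of the 19, against 20.6% of all genes. The gene called by edgeR, Pik3r1, the regulatory subunit of PI3 kinase, rose 2.24-fold (adjusted p = 0.000308). It went from 55.7, 45.9, 57.1 and 44.1 CPM to 145, 104, 109 and 96.9 CPM.

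**Figure D3:**
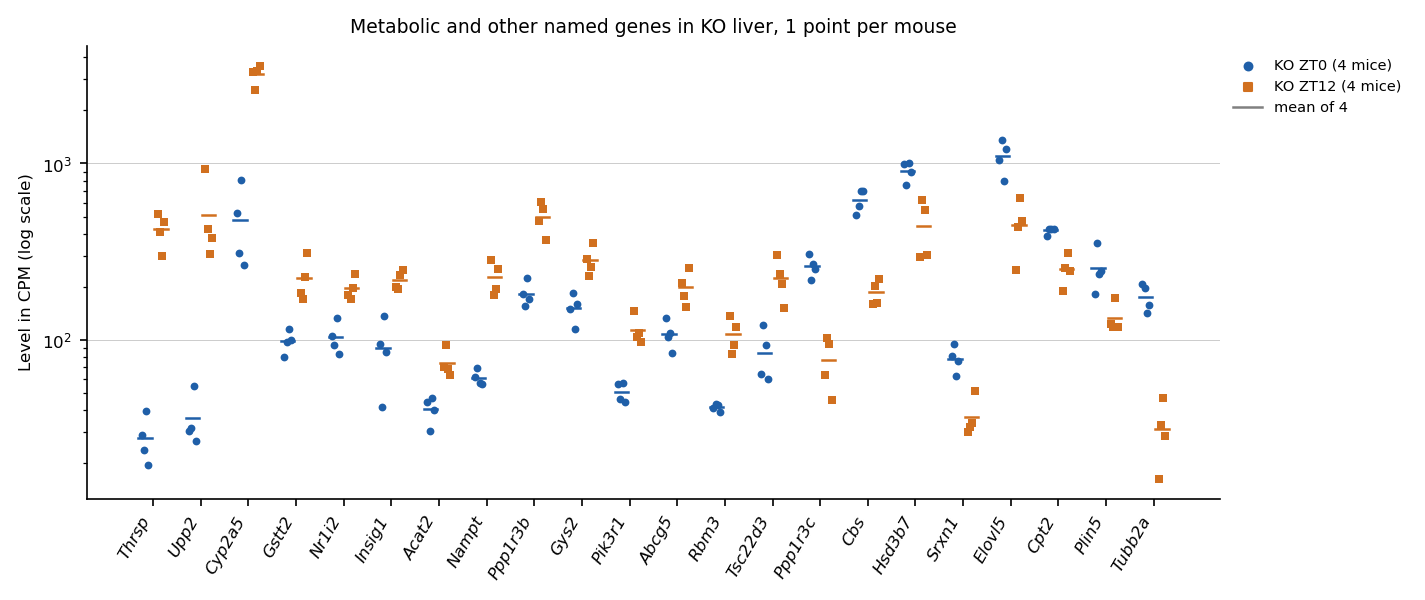
Level of 22 metabolic and other named genes in KO liver in CPM (log scale), 1 point per mouse at ZT0 (circles) and ZT12 (squares), with a line at the mean of 4. The first 14 genes, from Thrsp to Tsc22d3, are higher at ZT12 and the last 8, from Ppp1r3c to Tubb2a, lower. In none of the 22 do the groups overlap, but all 22 are called genes. Of the 550 called genes 526 do not overlap, against 22.7% of all genes tested.

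Of 27 genes of xenobiotic metabolism 3 rose, none fell, 23 of the 27 estimates were above 0 and the median was 0.55. The share called was 11.1%, against 4.03% of all genes. Cyp2a5, the mouse coumarin hydroxylase, was at 525, 310, 804 and 267 CPM at ZT0 and at 3297, 2610, 3348 and 3568 CPM at ZT12 (6.73-fold, adjusted p = 5.21e-07). Its reads may be shared with the near-identical Cyp2a4, which did not pass (adjusted p = 0.165), so the split between them is uncertain. Gstt2, a glutathione transferase, rose 2.28-fold (adjusted p = 7.56e-05) and Nr1i2, the xenobiotic receptor PXR, 1.89-fold (adjusted p = 0.000644). In bile acid and sterol transport 1 of 21 rose and 1 fell, a share of 9.52% against 4.03% of all genes. Abcg5, part of the canalicular sterol exporter, rose 1.85-fold (adjusted p = 0.0200), and lost the call with body weight as a covariate (0.0726) and in 4 of the 8 fits without 1 library. Hsd3b7, an early enzyme of bile acid synthesis, fell by 1.05 on the log2 scale (adjusted p = 0.00136).

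In the stress lists the share of members called was 5.26% for heat shock and temperature and 7.14% for NRF2 and oxidative stress. It was 6.67% for glucocorticoid-responsive genes and 13.6% for the unfolded protein response. Each share came from 1 to 3 genes, against 4.03% of all genes. In that order, 8 of 19, 6 of 14, 4 of 15 and 9 of 22 members had an unadjusted p under 0.05. Over all genes tested this share was 20.6%. Rbm3, a protein induced by mild cold, was at 41.1, 43.1, 42.4 and 38.9 CPM at ZT0 and at 136, 83.3, 92.9 and 117 CPM at ZT12 (2.60-fold, adjusted p = 0.00211). It was the 1 gene of 19 heat shock and temperature genes that passed. In the unfolded protein response 1 of 22 rose and 2 fell: Herpud1 rose 2.41-fold (adjusted p = 0.0106; 0.0547 without ZT0 replicate 2), while the ER chaperone partners Dnajb11 (adjusted p = 0.0383) and Sdf2l1 (adjusted p = 0.0421) fell. Both falls were lost with weight or with GC slope as a covariate and in 6 of the 8 fits without 1 library. Of 14 NRF2 and oxidative stress genes, Srxn1, which repairs peroxiredoxins, fell by 1.09 on the log2 scale (adjusted p = 0.00177). None of 18 immediate early genes passed edgeR's test, with 3 at an unadjusted p under 0.05 and 1 called by DESeq2. For 23 acute phase genes these numbers were 0, 4 and 0, and for 18 heme and iron genes 0, 4 and 1. These counts do not set the immediate early, acute phase and heme lists apart from the 20.6% over all genes tested. Among 15 glucocorticoid-responsive genes Tsc22d3 alone passed. In the cell cycle list Wee1 and Birc5, the survivin gene, rose and the other 19 of 21 did not pass. The share called was 9.52%, against 4.03% of all genes. Birc5 was low, at 0.648 ± 0.305 CPM at ZT0 and 2.34 ± 0.456 CPM at ZT12 (SD, n = 4). Besides Nampt, 1 of 21 genes of NAD, one-carbon and polyamine metabolism passed, and the share called was again 9.52%. Cbs, the first enzyme of transsulfuration, fell from 513, 574, 702 and 700 CPM to 158, 201, 161 and 222 CPM (log2 change -1.74, SE 0.40, adjusted p = 0.00657).

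Transcripts of the translation and respiration machinery leaned to higher levels at ZT12. Of 80 cytosolic ribosomal protein genes 14 rose and none fell, a share of 17.5% against 4.03% of all genes. Of the 80 estimates 78 were above 0, with a median of 0.61. Rpl3 went from 247, 299, 319 and 324 CPM to 452, 564, 465 and 485 CPM (1.65-fold, adjusted p = 0.00398). Of 85 respiratory chain genes 6 rose and none fell, a share of 7.06% against 4.03% of all genes. Of the 85 estimates 74 were above 0, and the median was 0.49. Atp5g2, a subunit of the ATP synthase ring, rose 1.45-fold (adjusted p = 0.00471). Many ribosomal protein genes have near-identical processed copies that can share their reads. With body weight as a covariate 1 ribosomal gene was called and the median was 0.40, and 1 respiratory gene with a median of 0.37. With GC slope as a covariate 17 and 13 were called, with medians of 0.43 and 0.38. Without ZT0 replicate 1, 1 ribosomal and 1 respiratory gene stayed past the threshold. Without ZT0 replicate 3 or 4 the counts were 3 and 2 or 7 and 3, and without ZT12 replicate 1, 2 or 3 they were 3 and 2, 4 and 2, or 4 and 4. Leaving out ZT12 replicate 4 gave 11 and 2.

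**Figure D4:**
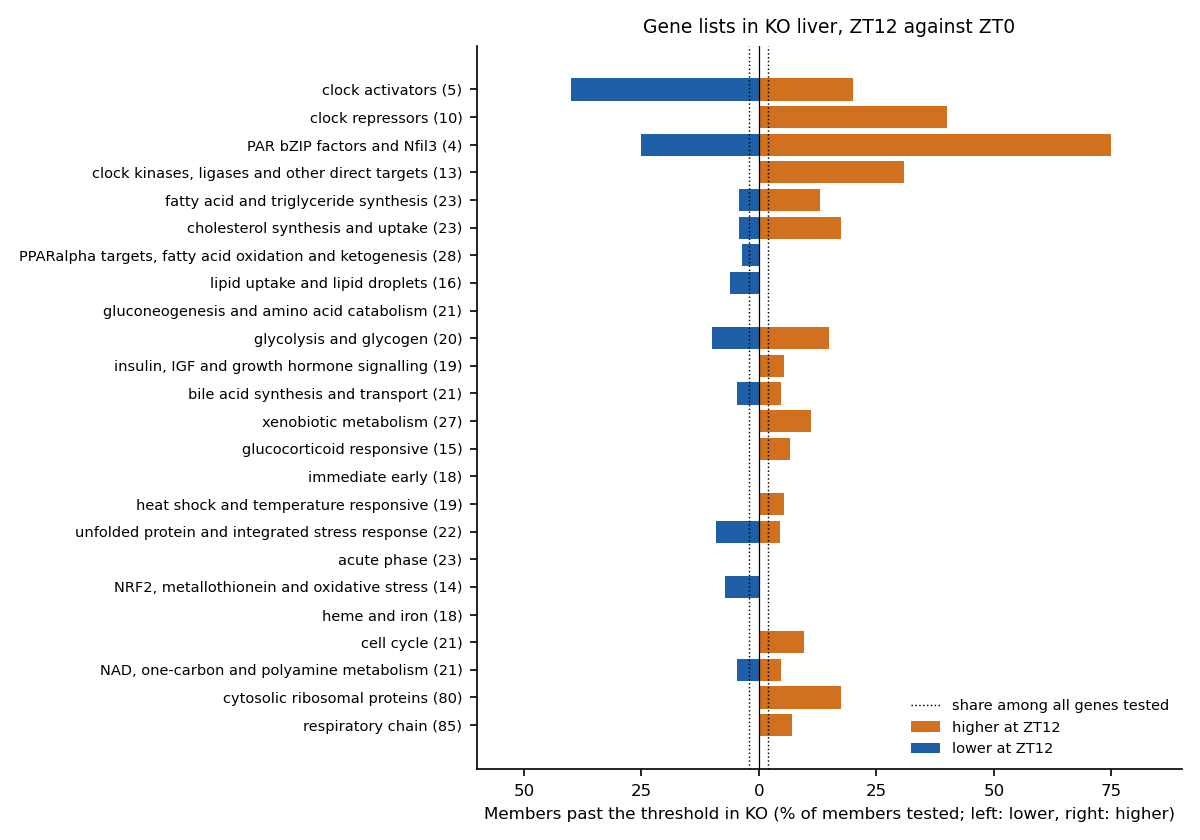
Share of tested members past the threshold in KO liver for 24 gene lists (number tested in brackets), in percent, to the right for higher and to the left for lower at ZT12. Dotted lines mark the share among all genes tested, 1.898% higher and 2.132% lower. The 4 clock lists reach the largest shares. The ribosomal and respiratory lists have calls in 1 direction, as do several shorter lists, among them clock repressors and xenobiotic metabolism.

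Among the 10 cell type lists, edgeR's test called Cela2a and no other gene. Over the other 9 lists, 0 to 2 members of a list had an unadjusted p under 0.05, against 20.6% of all genes tested. DESeq2 called 1 cholangiocyte marker. All 15 Kupffer cell and macrophage markers had estimates above 0, with a median of 0.56; their summed level was 343 to 726 CPM at ZT0 and 688 to 997 CPM at ZT12. Cd163, a scavenger receptor of Kupffer cells, was at 3.52, 17.9, 7.09 and 12.0 CPM at ZT0 and at 24.2, 19.9, 15.7 and 25.9 CPM at ZT12 (adjusted p = 0.178). Lymphocyte markers summed to 16.3 to 32.6 CPM and 14.7 to 23 CPM, and neutrophil markers to 18.9 to 78.3 CPM and 19.7 to 32.6 CPM, with Ly6g at 0. Stellate, endothelial, cholangiocyte and erythroid sums overlapped between the times. Adipocyte markers, the cell type that carries the deletion, summed to 23.1 to 101 CPM at ZT0 and 31 to 65.5 CPM at ZT12, and Lep and Retn were at 0 in all 8 libraries.

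Set beside WT, the ZT12 against ZT0 change in KO had the same sign in 545 of the 550 called genes (99.1%). Some WT libraries stood apart in blood cell genes: neutrophil markers summed to 1789 CPM in WT ZT0 replicate 3 and lymphocyte markers to 319 CPM in WT ZT12 replicate 3, and Kupffer markers, with a WT median of -0.98, to 2007 CPM in the former. WT called 565 genes (413 and 622 without these libraries), 4.14% of those tested, 259 higher and 306 lower. Both genotypes called 298 genes, all in the same direction, which is 54.2% of the KO calls and 52.7% of the WT calls. The difference between the genotypes was tested as an interaction, KO minus WT of the log2 change. No gene (0.0%) passed edgeR's test (smallest adjusted p 0.141), 415 genes (3.04%) had an unadjusted p under 0.05, and DESeq2 called 1 gene. That gene was Mpzl1, an immunoglobulin-family membrane protein, also the 1 called with GC slope as a covariate (adjusted p = 0.00787 and 0.0426). Mpzl1 was at 8.09, 11.6, 8.39 and 10.3 CPM in KO at ZT0 and at 3.24, 4.00, 5.16 and 4.95 CPM at ZT12, a log2 change of -1.15 (SE 0.30), beside -3.32 (SE 0.33) in WT. Its interaction was 2.17 (SE 0.43).

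The 5 genes called in KO whose WT estimate had the other sign, named here after their values were seen, were Fadd, Lmod3, Ostb, Cela2a and Cyp3a59. Ostb, a basolateral bile acid transporter subunit, was at 0.15, 0.228, 0.305 and 0.156 CPM in KO at ZT0 and at 2.485, 0.583, 0.645 and 6.15 CPM at ZT12, so replicates 1 and 4 carried most of the rise. Its KO call was lost with body weight as a covariate (0.0818) and in 6 of the 8 fits without 1 library, with adjusted p up to 0.157 without ZT12 replicate 4. Cyp3a59 went from 49.9 ± 15.1 to 147 ± 48.3 CPM in KO and from 87.1 ± 24.9 to 86.1 ± 35.2 CPM in WT (SD, n = 4), and its reads may be shared with other Cyp3a genes. None of the 5 passed the interaction test after adjustment (adjusted p = 0.999 each).

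For some clock genes the estimated change was smaller in KO than in WT, at an unadjusted p that did not survive adjustment. Arntl had a log2 change of -2.36 in KO and -4.20 in WT, an interaction of 1.84 (SE 0.57, unadjusted p = 0.00254, adjusted p = 0.999). The WT libraries were at 37.8, 43.7, 29.3 and 37.2 CPM at ZT0 and at 0.818, 1.5, 3.41 and 2.33 CPM at ZT12. KO replicates 1 and 4 at ZT12 lay within this WT range and replicates 2 and 3 above it. Npas2 had -3.93 in KO and -6.58 in WT (unadjusted p = 0.00985). Its WT libraries at ZT12 were near the floor, at 0.082, 0.15, 0 and 0.166 CPM, so the size of the WT fall is poorly measured. Dbp rose by 3.51 in KO and 5.07 in WT (unadjusted p = 0.0505). Nr1d1 had estimates of -0.56 in KO and 2.16 in WT, neither past the threshold (edgeR interaction adjusted p = 0.999, unadjusted 0.0265). With GC slope as a covariate the KO estimate was above 0 as well, at 0.77, and did not pass (adjusted p = 0.396). The WT estimate in that fit was 2.33 and passed (adjusted p = 0.000756). For Per2, Per3, Nr1d2, Gm129, Tef and Nfil3 the interaction p was 0.315, 0.612, 0.63, 0.83, 0.692 and 0.919, and every one of these genes passed in both genotypes. Among the other genes with the smallest interaction p, Akr1b7 (1.40 in KO, -2.37 in WT) and B430306N03Rik (0.69 and -1.47) did not pass in KO. Their WT estimates rested on WT ZT0 replicate 3, the library with the neutrophil genes, at 20.6 and 12.9 CPM; without it they were -0.36 (adjusted p = 0.869) and -0.63 (adjusted p = 0.511).

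**Figure D5:**
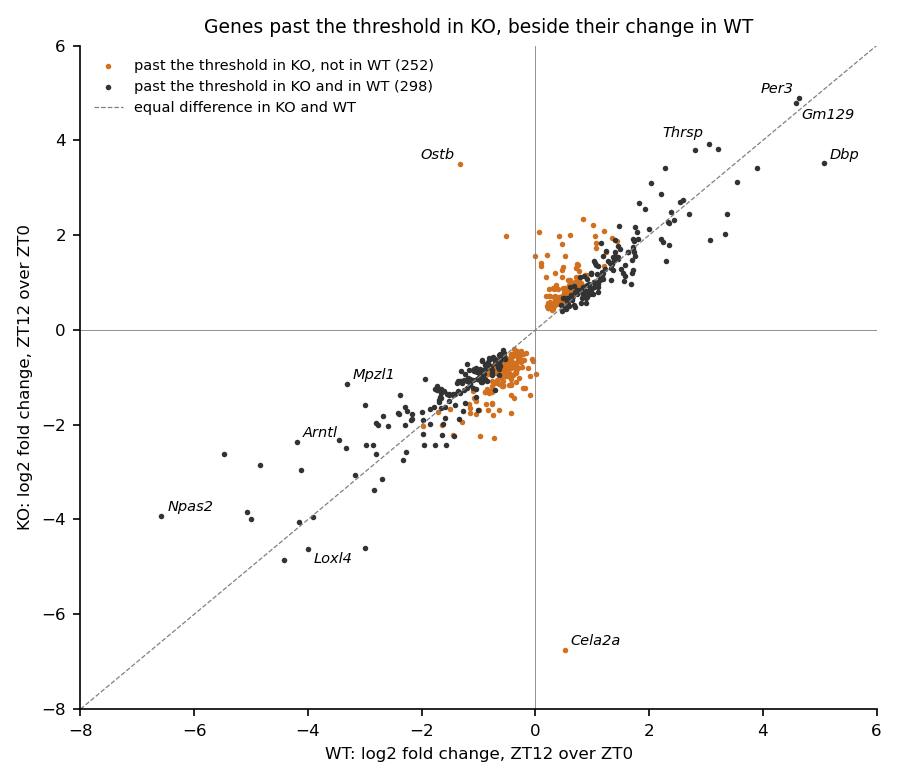
Log2 change from ZT0 to ZT12 in KO (vertical) against WT (horizontal) for the 550 genes past the threshold in KO, 298 of them also past it in WT (dark) and 252 not (orange). Most points lie along the dashed line of equal change; Ostb and Cela2a lie where the signs are opposite, and Arntl, Npas2 and Mpzl1 lie above the line among the falling genes.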

How the data were processed

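Liver polyA RNA was sequenced from stranded TruSeq libraries made with 13 PCR cycles over 3 days, per the labels' protocols; which library was made on which day is not given. Reads were handled with CASAVA and STAR 2.4.1d on mm9, per the submitters' processing notes; the counting program is not given in the sources used here. The deposited values are whole-number read counts per gene (22354 genes), per the file headers. Whether they were brought to a near-equal total before deposit is not stated. Alb counts were whole multiples of 1311.614 (within 0.00094 of a step) in the deposited table, so Alb was left out of library sizes, tests and text.

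The counts were tested in R 4.3.3 with edgeR 4.0.16: filterByExpr (13646 genes kept), TMM scaling, and a quasi-likelihood fit of 12 group means over all 48 libraries, with Benjamini-Hochberg adjustment over all genes and a threshold of 0.05. Contrasts were ZT12 minus ZT0 in KO, the same in WT, and their difference. Log2 changes carry a standard error (SE), and levels are CPM on TMM-scaled library sizes with the SD between mice. The p-values rest on a spread between mice that is pooled over the 12 groups, not on the mice compared alone. In fits of 8 libraries alone, 2783 genes were called in KO and 216 in WT, so the counts of calls depend on this pooling. On simulated counts of 13646 genes for the KO comparison, 52 of 100 genes changed 2-fold and 91 of 100 changed 4-fold were recovered, and 5.3% of calls were unchanged genes. The interaction test called 7 unchanged genes there. The simulated counts held no GC slope and no weight difference between the times, so the 5.3% need not hold for the 550 calls.

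Of 699 entries in 34 gene lists, 693 were matched and 655 tested; Hmgcs1, Hilpda, Tfr2, Tf, Prss1 and Amy2a5 were not matched. Some genes chosen by the following rule are not reported here. Genes named were all clock genes of 3 lists and the 10 largest changes each way (called genes, mean CPM at least 2, groups not overlapping). Named too were up to 3 members of each other list with the smallest p, and the 5 smallest interaction p. Members, lists and this rule were chosen with earlier results of these data known. Alternatives were DESeq2 1.42.0, median-ratio scaling, no filter, Alb kept, only the libraries compared, weight, age or GC slope as covariate (GC content from transcripts matched by gene ID, 94.2% of genes), a replicate block, and each library left out. Gene coordinates are mm9 as in the table; promoter windows are GRCm38.p6, and none were converted.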

Additional observations from a re-analysis of the deposited data

Results flagged for a closer look

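In 164 groups of 4 libraries (the named genes in KO at each time), 8 had 1 library far from the other 3 by Dixon's ratio at its 95% critical value; chance flags about 1 in 20 groups. Per2 was at 88.7 CPM in ZT12 replicate 4 and Pde6c at 2.78 CPM in the same library. Bhlhe40 was at 29.7 CPM in ZT0 replicate 2 and Cela2a at 69.0 CPM there, the library with the pancreas genes. Bhlhe41 was at 0.167 CPM in ZT12 replicate 2. Npnt was at 1.61 CPM and Plin5 at 173 CPM in ZT12 replicate 3. Cpt2 was at 390 CPM in ZT0 replicate 1, the lowest of a tight group.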

How the results depend on the processing

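In KO, 40 of the 59 named genes called kept their call in every alternative that gave a value, none of the 59 changed sign, and 13 of the 23 named genes not called gained a call in at least 1. The 550 KO calls became 867 with DESeq2, 309 with body weight, 2783 in a fit of the 8 libraries alone and 1285 with the replicate block in those 8; leaving out 1 library gave 246 to 409. Of the 550, 539 were called by DESeq2 (10 had no adjusted p there), 487 with GC slope, 477 with age, 358 without the filter and 270 with weight. The 565 WT calls became 1544 with GC slope, 216 in the 8 libraries alone and 38 with the replicate block, and 380 to 622 without 1 library. The interaction called 1 gene with DESeq2 and 1 with GC slope, and 0 in every other alternative, both replicate blocks included. Replicate numbers did not pair KO libraries across times: correlations of same-numbered deviations were -0.136, -0.275, -0.0917 and 0.144, and 0 of 4 libraries correlated best with their own number. Estimates that changed sign were Rora (-0.0597) and Nr1d1 (0.77) in KO with GC slope, Alas2 in KO with GC slope (0.0848), with weight (0.324) and without ZT12 replicate 1 (-0.534 to 0.0566 over the libraries left out), and Cela2a in WT with weight (-0.0178); no call was involved, and the cause was not tested. Low counts limit genes such as Bhlhe41, under 0.6 CPM in every KO library compared here.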
